A study of Solanum lycopersicum with 27 samples.

Results

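In tomato leaf, 150 of the 34688 loci in a table of read counts had far more transcript in the late libraries labelled control than in those labelled water deficit, and they are described here across all days and both leaf ages. They were chosen from measured values. Counts were divided by the library total and multiplied by 1000000 (written CPM), group means were taken as log2(CPM + 1), and the mean of the deficit-labelled group was subtracted from that of the control-labelled group. This was done for mature leaf at day 8, mature leaf at day 10 and young leaf at day 10, and the 150 loci with the largest smallest-of-3 difference were taken and ranked by it, with rank 1 the largest. Replicate 1 of the mature day 10 deficit group was left out of the choice.

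All plants were wild-type Solanum lycopersicum of the cultivar Moneymaker, 50 days old when treatment began. Plants labelled control are described as having received water to soil capacity on alternate days, and those labelled deficit as having received none. Polyadenylated RNA came from 1 leaflet of a mature leaf after 4, 5, 8 or 10 days, or from an entire young leaf still developing after 10 days. Of the 10 groups, 7 held 3 libraries, and 3 held 2, namely both mature day 8 groups and the mature day 10 control group. Nothing in the labels says that replicates were separate plants, so p-values measure only the spread between these libraries. Library totals ran from 14725924 to 19642202 counts. The 3 counts taken here as an approximate upper limit for an observed 0 correspond to 0.153 to 0.204 CPM. These limits cover counting error only.

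When water is withheld from a plant, its leaves build up the hormone abscisic acid, stomata close, and genes for protective proteins such as dehydrins, for compatible solutes and for hormone breakdown are commonly switched on, while photosynthesis and growth genes are commonly turned down. Leaves of different age can differ in how far they mount this programme. None of this was tied to single loci here. The table holds locus identifiers only, and 0 of the 34688 matched the reference table of 41476 genes, which uses another system of identifiers. An annotation of the Solyc identifiers was not used here, so names, functions, sequences and coordinates are not given. The labelled tissue was not checked against marker genes, and which arm had been watered was not checked against known drought genes. Such a check matters for all groups, the late ones included, because every direction here is that of the label. Only 4 identifiers are printed, with other loci given by rank. Over the 4 days of mature leaf, 74.7% of all loci tested stayed within 1 on the log2(CPM + 1) scale in control. In deficit, without replicate 1 of day 10, 91.8% did. Whether the arms are labelled the right way round was not tested. Since these are whole-leaf samples, a change in transcript per cell and a change in the share of cells that express a locus cannot be told apart.

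One library went against its label. Replicate 1 of the mature day 10 deficit group correlated at r = 0.997 with both control libraries of that day, and at r = 0.904 and r = 0.906 with the other deficit libraries, on log2(CPM + 1) over the 19072 loci tested. All other pairs within a group correlated at r of at least 0.991. Tests below leave this library out, and their counts with it are given beside them.

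**Figure D1:**
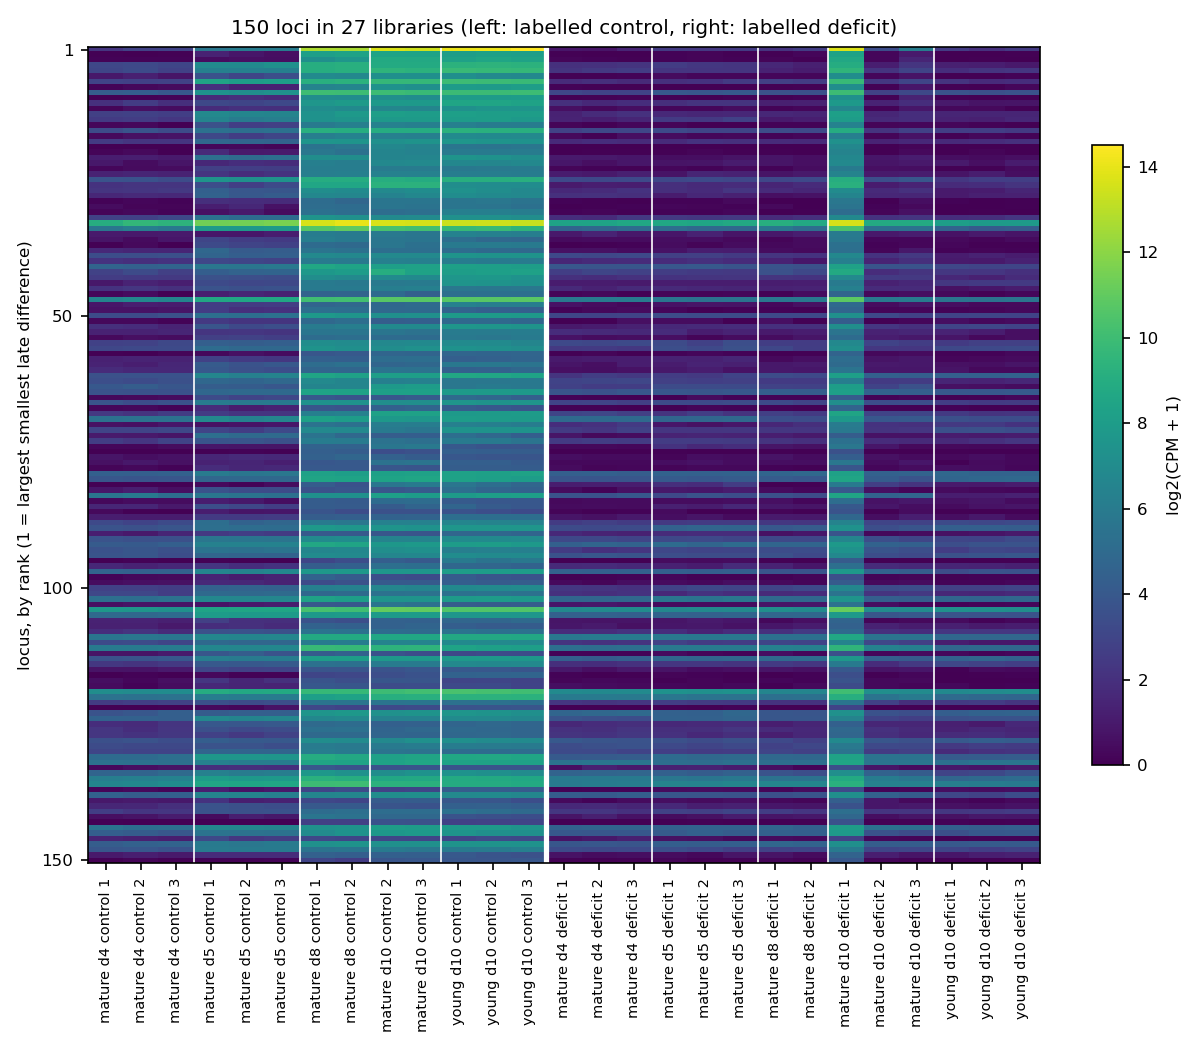
Level of each of the 150 loci (rows, by rank) in each of the 27 libraries (columns), as log2(CPM + 1), with control-labelled libraries left of the thick line and deficit-labelled ones right of it. Levels are high in the control-labelled libraries of day 8 and day 10 and in 1 deficit-labelled library, replicate 1 of mature day 10, with day 5 control in between.

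The smallest of the 3 late differences, the value that ranked the loci, ran from 8.22 to 2.65 on the log2 scale, with a median of 3.49. The threshold cut through a dense series of values. The last 3 loci inside it had 2.66, 2.65 and 2.65, and the first 3 outside had 2.65, 2.64 and 2.62. The comparison that gave the smallest difference was mature day 10 for 69 loci, mature day 8 for 54 and young day 10 for 27. Median differences were 3.93 at mature day 8, 3.85 at mature day 10 and 4.20 in young leaf, each a description of the choice and not a test. With the library that went against its label left out, every control-labelled library exceeded every deficit-labelled one at all 150 loci in all 3 comparisons. The choice nearly fixes this order. Of all loci tested, the same order held for 42.8%, 35.0% and 36.8%.

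In mature leaf the difference lay in the control-labelled arm. The median level of the 150 loci there in log2(CPM + 1) was 2.11 after 4 days, 3.62 after 5, 6.12 after 8 and 6.35 after 10. In CPM, the medians were 3.32, 11.3, 68.4 and 80.8. In the deficit-labelled arm, without replicate 1 of day 10, the median level was 1.76, 1.85, 1.38 and 1.78 on the same days. In CPM, these medians were 2.40, 2.60, 1.60 and 2.44. Without that library the deficit-labelled arm was thus low on every day, with no trend of the size seen in control. The median over all loci tested stayed between 4.06 and 4.22 in the mature groups of both arms.

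Each library showed the same order. The median level of the 150 loci was 2.05, 2.05 and 2.06 in the day 4 control libraries, and 3.73, 3.57 and 3.51 in those of day 5. The day 8 pair had 6.16 and 6.18, and the day 10 pair 6.36 and 6.36. These 4 sets of libraries did not overlap, and each day lay above the one before. The deficit-labelled libraries of mature leaf, without replicate 1 of day 10, ran from 1.38 to 1.86.

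The 150 loci took 0.241% ± 0.0139 (SD, n = 3) of all counts in the day 4 libraries of control-labelled mature leaf. In the day 5 libraries this share was 0.921% ± 0.0399 (SD, n = 3). The day 8 share was 4.62% ± 0.256 (SD, n = 2), and that of day 10 was 5.15% ± 0.134 (SD, n = 2). The share in young control leaf at day 10 was 5.66% ± 0.211 (SD, n = 3). Deficit-labelled groups stayed between 0.140% and 0.194% without replicate 1 of mature day 10, which had 5.33%. The locus of rank 33 had the most counts of them at day 8, and without it the control shares of the first 3 days were 0.176%, 0.640% and 3.16%.

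**Figure D2:**
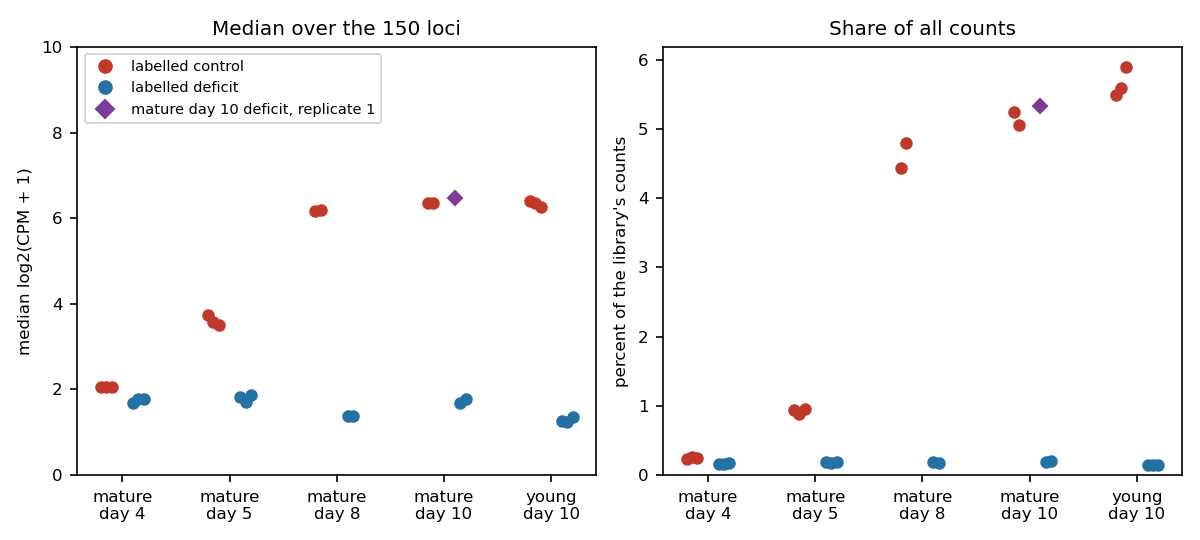
Median log2(CPM + 1) over the 150 loci (left) and their share of each library's counts in percent (right), with 1 point per library (red control-labelled, blue deficit-labelled, purple diamond replicate 1 of mature day 10 deficit) and days and leaf ages along the x axis. Control-labelled libraries climb from 2.05 to 2.06 at day 4 to 6.36 at mature day 10, and replicate 1 of the mature day 10 deficit group, at 6.47, lies with them.

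Days 4 and 5 took no part in the choice of loci, so the onset could be tested there. Read counts of all loci were fitted in edgeR, and differences were tested with its quasi-likelihood test and Benjamini-Hochberg adjustment over the 19072 loci, with calls at an adjusted p below 0.05. All 150 loci passed the filter on low counts, which drew on the late groups too. With a filter on the day 4 and day 5 libraries alone, 138 passed. The other 12 were tested only because of the late groups that chose them, and they hold 6 of the calls of higher in control at day 5, 1 of the calls of lower, and 8 of the rises in control given below. They also hold 1 of the rises in deficit and 1 of the interactions called lower, both at rank 95.

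At day 4 the arms already differed at many of the loci, mostly by little. The fit called 69 of the 150 higher in control-labelled leaf, where 16.0% of all loci tested were called in that direction, and 10 lower, where 14.9% were. The remaining 71 were not called. The median fitted log2 difference was 0.61, against 0.00 over all loci tested, and 33 of the 69 differed at least 2-fold, beside 1.34% of all loci. Of the 10 lower ones 2 did, beside 2.00%. On the log2(CPM + 1) scale the median difference was 0.25, with a range from -1.45 to 1.88. This median depends on the value added before the logarithm, being 0.49 with 0.1 and 0.059 with 10 in place of 1. The difference was above 0 at 115 loci, beside 40.5% of all loci tested, and above 1 at 13, beside 0.388%. All control libraries exceeded all deficit libraries at 74 loci, beside 16.6% of all loci tested, and lay below them at 15, beside 29.4%. Once the library that went against its label was added to the fit, edgeR called 0 of the 150 at day 4, with 5 at an unadjusted p under 0.05 and a median fitted difference of 0.60. The number called lower was 6 without day 4 control replicate 2, and also 6 without day 4 deficit replicate 2.

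By day 5 most of the loci were apart. The same test called 137 higher in control-labelled leaf, beside 21.8% of all loci tested, and 3 lower, beside 21.8%. The median fitted log2 difference was 2.37, and 128 of the 137 differed at least 2-fold, beside 4.00% of all loci, as did the 3 lower ones, beside 6.76%. On the log2(CPM + 1) scale the median was 1.58, against 2.16 with 0.1 and 0.69 with 10 added in place of 1. With 1 added, 141 loci were above 0, beside 39.5% of all loci, 106 were above 1, beside 1.88%, and 18 were above 3. At 137 loci the lowest control library lay above the highest deficit library, beside 18.4% of all loci tested, and at 4 the arms lay apart the other way, beside 33.3%. In the fit that included the library that went against its label, 71 were called higher and 1 lower.

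All 69 loci called higher in control at day 4 were called higher again at day 5. Of the 71 not called at day 4, 62 were called higher at day 5, 2 lower and 7 not at all. The 62 include 6 of the 12 loci tested only because of the late groups, and the 2 include 1. The 10 loci called lower in control at day 4 divided into 6 called higher at day 5, 1 called lower and 3 not called. How far day 4 calls recurred at day 5 was not counted for all loci tested. Each day has control libraries of its own, and both sets of calls come from 1 fit.

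**Figure D3:**
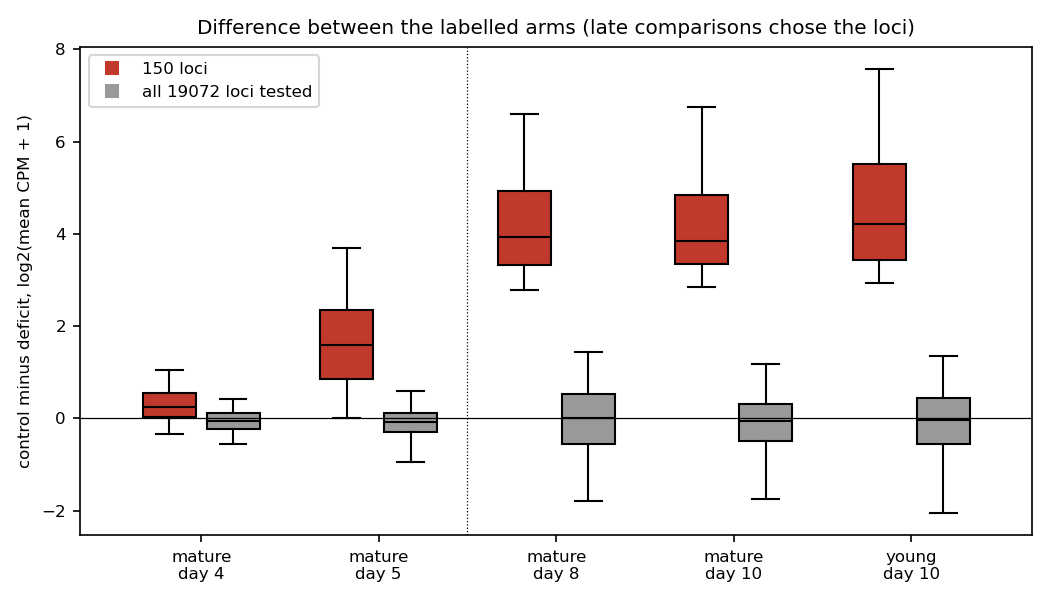
Control minus deficit in log2(mean CPM + 1) for the 150 loci (red) and all 19072 loci tested (grey), as boxes of the quartiles with the median as a line and whiskers at the 5th and 95th percentiles. The median of the 150 is 0.25 at day 4 and 1.58 at day 5, while the values right of the dotted line, 3.93, 3.85 and 4.20, are those that chose the loci.

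The change from day 4 to day 5 within each arm showed which arm moved. In control-labelled mature leaf 137 of the 150 loci rose, beside 17.9% of all loci tested, and 0 fell, beside 19.9%. The median fitted log2 change was 2.06, and 128 rose at least 2-fold, beside 3.71% of all loci, while 4.51% of all loci fell that far. At 138 loci all day 5 control libraries exceeded all day 4 control libraries, beside 16.2% of all loci. For the count of 0 falls, DESeq2 gave 0 as well, and 138 loci had an unadjusted p under 0.05 in edgeR, of which 137 were the called rises. In deficit-labelled leaf 36 loci rose, beside 12.6%, 13 fell, beside 12%, and 101 were not called, with a median change of 0.24. Changes of at least 2-fold there were 15 rises, beside 2.29% of all loci, and 3 falls, beside 1.61%. Of the 137 loci that rose in control, 33 also rose in deficit, 10 fell and 94 were not called there. This division was not made for all loci tested. Within 1 arm, the time since treatment began and anything else that differed between the harvest days cannot be told apart. With the library that went against its label added to the fit, 49 loci rose in control. In deficit edgeR then called 0 rises and 0 falls, with 2 loci at an unadjusted p under 0.05.

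Whether the arms moved apart between the days was tested as an interaction. The difference, control minus deficit, was larger at day 5 than at day 4 at 108 loci, beside 11.6% of all loci tested, and lower at 3, beside 14.4%. By at least 2-fold it was larger at 96 loci, beside 2.66%, and lower at 2, beside 5.03%. The locus of rank 95, 1 of the 3 and 1 of the 2, passed the filter on low counts only through the late groups. The median interaction was 1.69 on the log2 scale. With the library that went against its label added, edgeR called 1 locus larger and 0 lower, at a median of 1.68, with 30 loci at an unadjusted p under 0.05. The count of 3 was 1 in each of 4 fits, those without day 4 control replicate 2, day 4 deficit replicate 2, day 4 deficit replicate 3 and day 5 control replicate 3. With only the day 4 and day 5 libraries in the fit, 138 of the loci were tested, and 110 were called larger and 2 lower.

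The loci differed in how early they moved. As a share of the day 8 minus day 4 difference in control-labelled leaf, in log2(CPM + 1), the day 5 value stood at a median of 39.0%, with quartiles of 21.0% and 54.9% and a range from -5.49% to 119.1%. There were 46 loci at 50% or more and 104 below. Group means were in the order day 4, day 5, day 8 at 142 loci. Between days 8 and 10 there was little further difference in control, with a median of 0.03, and 79 loci were higher at day 10. The late values entered the choice of the loci, so these shares are a description.

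**Figure D4:**
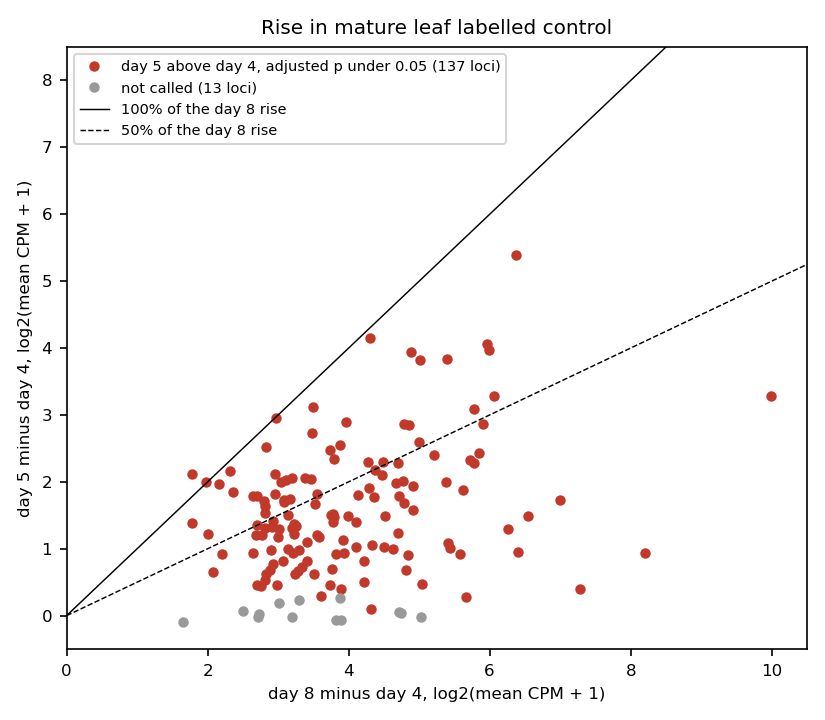
Day 5 minus day 4 (y axis) against day 8 minus day 4 (x axis) in control-labelled mature leaf, both in log2(mean CPM + 1), with 1 point per locus, red for the 137 called at day 5 and grey for the 13 not called. Most points lie under the dashed line (the solid line marks 100%), where less than 50% of the day 8 difference was present at day 5 (104 loci).

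Starting levels ranged from none to well expressed. At day 4, 47 loci were under 1 CPM in both arms, 32 were over 10 CPM in both, and 71 lay elsewhere. The 47 low loci had median levels in control of 0.230 CPM at day 4, 1.90 CPM at day 5 and 22.6 CPM at day 8, and in deficit of 0.113, 0.200 and 0.157 CPM. At day 5, 39 of them were called higher in control, beside 21.8% of all loci tested, and 2 lower, beside 21.8%. Some of these calls are of loci that passed the filter on low counts only through the late groups. Among them are the higher call of rank 2 and the lower call of rank 95. The 32 loci with a standing level had median levels in control of 32.5, 90.5 and 307.2 CPM on those days, against 23.5, 25.3 and 26.2 CPM in deficit. Of these, 31 were called higher at day 5, beside 21.8% of all loci tested. The 3 groups reached a median of 23.9%, 45.3% and 42.4% of their day 8 difference by day 5. Values near the floor of 3 counts are imprecise, and a fixed offset of 1 CPM lowers the day 5 share of the lowest loci. At day 8 in control, every locus exceeded 1 CPM and 142 exceeded 10 CPM. In deficit at that day 63 were under 1 CPM, and 3 had 0 counts in both libraries.

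Without replicate 1 of mature day 10, the deficit-labelled arm was close to flat, though a little less so than the table as a whole. Over days 4, 5, 8 and 10 of mature leaf, the highest and lowest group means lay within 1 on the log2(CPM + 1) scale at 127 loci (84.7%), against 91.8% of all loci tested. In the control arm the same held for 0 of the 150 and for 74.7% of all loci. Days 8 and 10 of both arms entered the choice, so the 0 in control is nearly fixed. The day 8 minus day 4 difference in deficit had a median of -0.01 and ranged from -1.54 to 1.35. It was above 1 at 3 loci (2%), against 1.05% of all loci tested, and below -1 at 6, beside 317 of all 19072. The day 10 minus day 4 difference there had a median of 0.08 and reached 4.29. It was above 1 at 7 loci (4.67%), against 1.45% of all loci tested, and below -1 at 2, beside 418 of all 19072. The 2 deficit libraries of mature day 10 other than replicate 1 were set against each other. Of the 150 loci, 4 were higher by more than 1 in replicate 3 than in replicate 2, and none was lower by that much. Of all 19072 loci tested, 121 were higher and 12 lower by that much. The median of replicate 3 minus replicate 2 was 0.06, against -0.06 over all loci tested.

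Solyc02g084850.3, of rank 1, had the largest day 8 minus day 4 difference in control, 9.99 on the log2(CPM + 1) scale. Its day 4 control libraries had 3.73, 6.42 and 6.57 CPM and its day 4 deficit libraries 0.826, 0.734 and 1.80 CPM. At day 5 the control libraries had 53.9, 67.9 and 66.5 CPM, and the deficit libraries 4.86, 4.24 and 4.44 CPM. The arms did not overlap on either day, and the day 5 control libraries were far above all others of those days. In control leaf the day 8 libraries had 6791 and 6561 CPM and those of day 10 had 13175 and 11535 CPM, so that this locus alone made up more than 1 count in 100 at the end. The day 8 deficit libraries had 3.51 and 5.30 CPM. Replicates 2 and 3 of day 10 had 9.62 and 71.4 CPM, while replicate 1 had 13750 CPM. Young leaf had 17319, 18297 and 23484 CPM in control and 4.87, 3.19 and 4.60 CPM in deficit.

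For this locus the fitted log2 difference between arms was 2.39 (SE 0.86) at day 4, with an adjusted p of 0.0437 in the quasi-likelihood test. That call was lost in 12 of 20 alternatives, and the adjusted p ranged from 2.45e-06 to 0.383 over them. At day 5 the difference was 3.90 (SE 0.52, adjusted p = 8.41e-06), and the rise from day 4 in control was 3.57 (SE 0.50, adjusted p = 2.00e-05), which was lost with the library that went against its label in the fit (adjusted p = 0.0778). The change in deficit, 2.06 (SE 0.90), had an adjusted p of 0.111, but passed with DESeq2 and with only the day 4 and day 5 libraries in the fit. In the latter fit its interaction passed too, at 1.49 (adjusted p = 0.0132), against 1.50 (SE 1.18, adjusted p = 0.392) with the late groups.

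Solyc03g025810.4, of rank 2, started at the limit of detection, and it passed the filter on low counts only through the late groups. It had 1, 0 and 1 counts in the day 4 control libraries and 1, 0 and 0 in the deficit libraries. At day 5 control libraries had 31, 16 and 9 counts, or 1.59, 0.847 and 0.491 CPM, and deficit libraries 2, 3 and 1 counts, so the arms did not overlap. At day 8 the control libraries had 288.1 and 322.5 CPM and the deficit libraries 0.0516 and 0.216 CPM. By day 5 it had reached 11.4% of its day 8 difference, below the lower quartile of the 150. At mature day 10 control leaf had 347.0 and 337.7 CPM, deficit replicates 2 and 3 had 0.204 and 1.09 CPM, and replicate 1 had 324.2 CPM. Young control leaf had 274.6, 307.6 and 276.2 CPM, and the young deficit libraries 0, 0 and 1 counts. The day 5 difference between arms was called at a log2 value of 3.18 (SE 0.62, adjusted p = 0.000147, quasi-likelihood test), and that of day 4 was not (adjusted p = 0.780). With the library that went against its label in the fit the day 5 call was lost (adjusted p = 0.491). Its interaction was not called (adjusted p = 0.592).

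Solyc01g106820.3, of rank 69, had the largest day 4 to day 8 drop in the deficit-labelled arm. Its day 4 deficit libraries had 32.0, 29.6 and 30.0 CPM, those of day 5 had 25.6, 27.1 and 28.8 CPM, and those of day 8 had 10.3 and 9.31 CPM. The control libraries of the same days had 41.6, 42.7 and 42.9 CPM, then 113.7, 84.7 and 99.9 CPM, then 299.6 and 258.5 CPM. Every control library exceeded every deficit library on each of these days. Deficit replicates 2 and 3 of mature day 10 had 14.6 and 15.9 CPM, above day 8 and below day 5. The arms differed at day 4 by 0.55 (SE 0.08, adjusted p = 5.99e-06) and at day 5 by 1.98 (SE 0.08, adjusted p = 1.34e-18) on the fitted log2 scale, and the quasi-likelihood interaction was 1.43 (SE 0.12, adjusted p = 4.60e-11). In deficit the day 5 minus day 4 change of -0.12 was not called (adjusted p = 0.326). With the library that went against its label in the fit, the day 4 difference and the interaction were lost (adjusted p = 0.611 and 0.362).

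Solyc03g013440.5, of rank 28, began with the arms in the opposite order. Day 4 control libraries had 2.10, 2.33 and 2.17 CPM and day 4 deficit libraries 2.97, 3.16 and 2.84 CPM. The sets did not overlap, but the fitted log2 difference of -0.37 (SE 0.20) did not pass (adjusted p = 0.161). At day 5 control had 22.7, 14.8 and 17.5 CPM and deficit 1.12, 2.07 and 1.50 CPM, which put control above by 3.64 (SE 0.16, adjusted p = 8.91e-18, quasi-likelihood test). Control rose by 3.13 (SE 0.15) and deficit fell by 0.88 (SE 0.21, adjusted p = 0.00216), so that both arms moved, and the interaction was 4.01 (SE 0.26, adjusted p = 6.50e-13). The day 8 control libraries had 102.8 and 99.1 CPM and the deficit libraries 0.516 and 0.649 CPM. Deficit replicates 2 and 3 of mature day 10 had 2.09 and 1.90 CPM, above day 8 and below day 4. With the library that went against its label in the fit, the fall in deficit and the interaction were no longer called (adjusted p = 0.745 and 0.121).

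**Figure D5:**
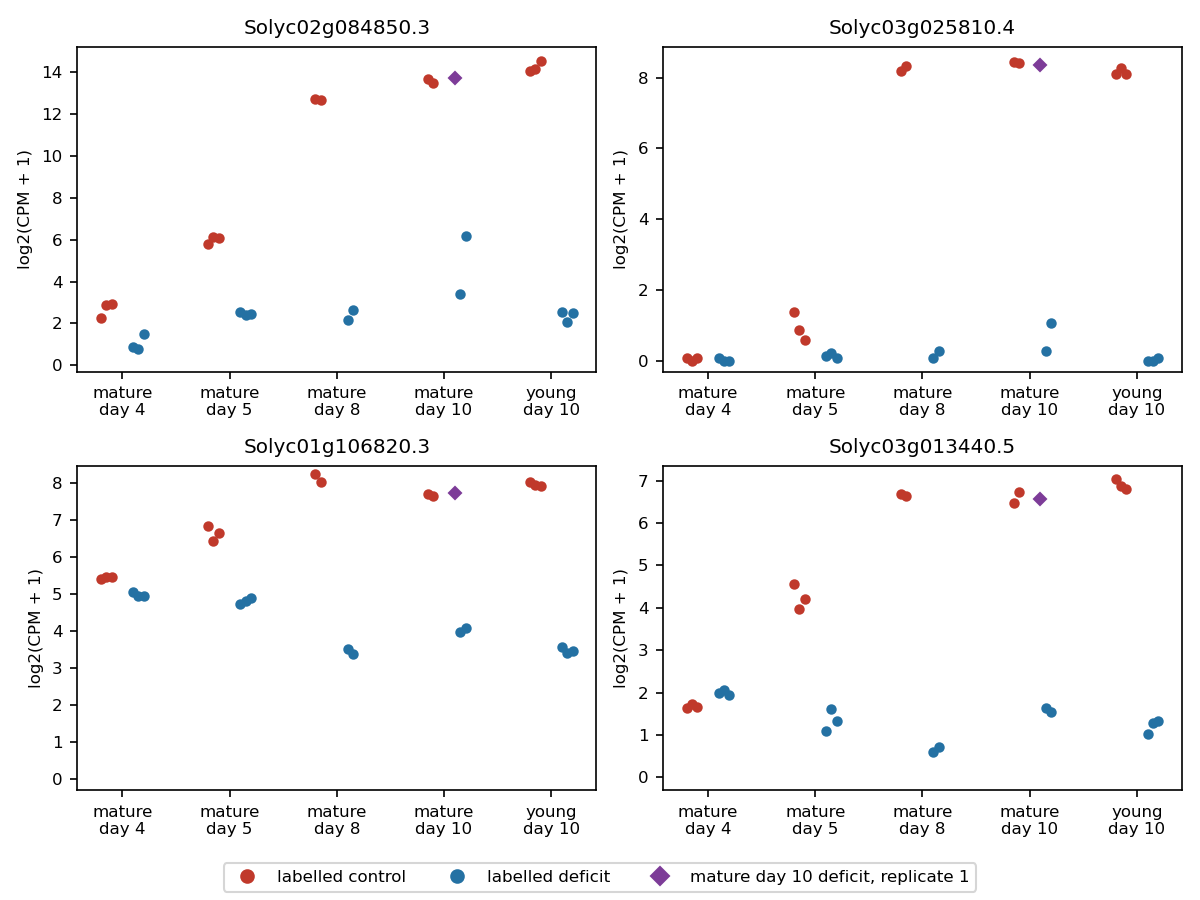
Level of the 4 named loci in every library, as log2(CPM + 1), with 1 point per library in the same colours (red control-labelled, blue deficit-labelled, purple diamond the library that went against its label). Solyc02g084850.3 and Solyc03g025810.4 had the largest day 4 to day 8 gain in control, Solyc01g106820.3 and Solyc03g013440.5 the largest drop in deficit, and replicate 1 of mature day 10 deficit lies at the control level in all 4.

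A few loci did not follow the common course. Of the 13 not called between days 4 and 5 in control, 9 were under 1 CPM at day 5, and at day 8 the 13 stood between 5.67 and 155.7 CPM. The loci of ranks 35, 70 and 83 below were singled out after their values were seen. The locus of rank 35 had 1.05, 0.984 and 1.03 CPM in the day 4 control libraries, 0.873, 0.847 and 1.25 CPM in the day 5 control libraries and 67.4 and 62.3 CPM at day 8, so its day 4 and day 5 libraries overlapped. The locus of rank 83 was of another kind. It differed between arms already at day 4, at 49.9, 59.2 and 37.6 CPM in control and 11.5, 11.5 and 14.7 CPM in deficit, a log2 difference of 2.04 (SE 0.17, adjusted p = 1.25e-08, quasi-likelihood test). It had 51.8, 45.4 and 40.2 CPM in control at day 5, and 157.5 and 153.9 CPM at day 8.

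The 3 loci called lower in control at day 5 had ranks 74, 81 and 95, and were singled out after their values were seen. At the locus of rank 74 the day 5 deficit libraries had 3.31, 2.17 and 2.70 CPM and the control libraries 0.822, 0.794 and 0.764 CPM. Both arms had risen from day 4 there, where all 6 libraries lay between 0.174 and 0.380 CPM, by 3.72 (SE 0.29) in deficit and 1.64 (SE 0.35) in control on the log2 scale. At day 8 the deficit libraries had 0.774 and 0.595 CPM, below day 5 and above day 4, while control had 22.5 and 22.7 CPM. The locus of rank 81 had 1 count in each day 4 control library against 22, 23 and 21 counts in deficit, and was higher in deficit at day 5 too. At day 8 its counts were 281 and 209 in control and 0 and 1 in deficit. The locus of rank 95 had 7, 6 and 7 counts in the day 5 deficit libraries and 1, 0 and 0 in control. It passed the filter on low counts only through the late groups, and was not tested in the fit of the day 4 and day 5 libraries alone. One further locus, of rank 70, was lower in control at day 4, at 0.578, 0.518 and 0.814 CPM against 2.70, 3.22 and 4.46 CPM, but had 0.565, 0.688 and 0.818 CPM against 0.854, 0.584 and 0.841 CPM at day 5.

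At day 10 the median difference between young and mature leaf was small in control, and the 150 loci leaned lower in young leaf in deficit. In both arms a smaller share of the 150 than of all loci tested lay within 1. In control-labelled leaf the young minus mature difference had a median of 0.06 on the log2(CPM + 1) scale. It was within 1 at 135 loci (90%), against 96.4% of all loci tested. Above 1 were 7, beside 437 of all 19072, and below -1 were 8 (5.33%), against 1.32%. In deficit-labelled leaf, without replicate 1 of mature day 10, the median was -0.23, against -0.05 over all loci tested. Within 1 were 137 loci (91.3%), against 93.6%. Above 1 was 1, beside 904 of all 19072, and below -1 were 12 (8%), against 1.68%. Higher in young leaf were 39 (26%), against 43.6%. The difference between arms was larger in young leaf at 100 loci, by a median of 0.31. It was larger by more than 1 at 26 loci and smaller by more than 1 at 5. These libraries chose the loci, so no test is given.

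Replicate 1 of the mature day 10 deficit group, which took no part in the choice, had all 150 loci at the level of the control-labelled libraries. Placed on a scale from 0 at the mean of the other deficit libraries to 100 at the mean of the day 10 control libraries, in log2(CPM + 1), it lay at a median of 100.6, with a range from 88.7 to 112.3. It exceeded both other deficit libraries at all 150 loci, beside 39.2% of all loci tested. The groups that set this scale chose the loci for a wide gap, and over all loci tested this library correlated at r = 0.997 with the control libraries. Both outcomes are therefore nearly fixed, and they are a description. At 49 loci this library lay within the range of the 2 control libraries, at 39 below and at 62 above. With this library in its group, the mature day 10 difference would have had a median of 1.38 and a range from 0.98 to 1.76, in place of 2.72 to 8.22.

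The identifiers give a little more. The digits after Solyc in a tomato locus identifier stand for the chromosome. Chromosome 3 held 27 of the 150 (18%), against 10.6% of the loci tested, and chromosome 6 held 23 (15.3%), against 8.73%. Chromosome 2 followed with 21 (14%, against 10.7%). Chromosome 11 held 3 (2.00%), against 6.63%, and chromosome 5 held 5 (3.33%), against 6.58%. The sequence not placed on a chromosome held 0, against 0.755% of the loci tested. There were 5 pairs of loci in adjacent rows of the table, so that 10 loci (6.67%) had another of the 150 next to them, against 0.834% of all other loci. Reads shared between near-identical neighbours could have been divided by the authors' counting, and its handling of such reads was not given in the sources used here.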

How the data were processed

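Values are whole-number read counts per locus, as deposited by the authors in 1 table of 34688 loci and 27 libraries; they were taken as raw because column totals differ. The aligner, counting tool, genome build, annotation and use of strand were not given in the sources used here. The submitters' processing notes name DESeq2, without its role. Groups came from the sample titles, and columns were matched by description.

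The 150 loci and all lists were chosen with earlier results of these data known. The tools were edgeR 4.0.16 with limma 3.58.1, under R 4.3.3. The filterByExpr step of edgeR kept 19072 loci with 99.97% of the counts, TMM factors ran from 0.935 to 1.06, and a model with 1 coefficient per group was fitted to 26 libraries, without replicate 1 of the mature day 10 deficit group, with robust quasi-likelihood tests. Standard errors are the log2 fold change over the square root of F. The script was checked on simulated data. Late comparisons chose the loci and were not tested.

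Named loci were the 2 with the largest day 4 to day 8 gain in control and the 2 with the largest drop in deficit, in log2(mean CPM + 1). Alternatives were DESeq2 1.42.0, scaling by RLE or by the upper quartile, other filters, all 27 libraries, only the day 4 and day 5 libraries, a replicate block, each library left out, pseudocounts of 0.1 and 10, and for the choice of loci also TMM-scaled totals.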

Additional observations from a re-analysis of the deposited data

Results flagged for a closer look

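The difference between the arms was not the same at day 4 and day 5, by the interaction test of edgeR's quasi-likelihood fit. Of the 150 loci, 108 had a larger difference, control minus deficit, at day 5, beside 11.6% of all loci tested, and 3 had a lower one, beside 14.4%. Of these 3, 1 passed the filter on low counts only through the late groups. Among the named loci the test passed for Solyc01g106820.3, with an interaction of 1.43 on the log2 scale, and for Solyc03g013440.5, with 4.01.
With the library that went against its label in the fit (replicate 1 of the mature day 10 deficit group), the counts were 1 and 0, and both named interactions were lost, at adjusted p = 0.362 for Solyc01g106820.3 and 0.121 for Solyc03g013440.5.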

How the results depend on the processing

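Setting the library that went against its label back into the fit (all 27 libraries) changed the calls most. At day 4 the counts of 69 loci higher and 10 lower in control became 0 and 0, and at day 5 137 and 3 became 71 and 1. The 137 rises in control became 49, the 36 rises and 13 falls in deficit became 0 and 0, and the interaction counts of 108 and 3 became 1 and 0. The medians of the 150 moved by little, and the shared spread was estimated with that library in its group. Other scalings, DESeq2, the filters, only the day 4 and day 5 libraries and the replicate block left these counts within 1.5 times. Fits that left out 1 of the 12 libraries of days 4 and 5 gave 61 to 69 loci higher and 6 to 10 lower at day 4, 136 to 137 and 3 at day 5, 134 to 136 rises and 0 falls in control, 30 to 43 rises and 9 to 13 falls in deficit, and 101 to 109 larger and 1 to 3 smaller interactions. Deviations of same-numbered libraries of the 2 arms correlated weakly, at r from 0.0084 to 0.179. Those of differently numbered libraries correlated at r from -0.14 to 0.0908. Whether replicate numbers pair the libraries was not tested. With the replicate block 70 loci were higher and 8 lower at day 4, 138 and 3 at day 5, and 107 and 2 in the interaction. A pseudocount of 0.1 gave median differences of 0.49 at day 4 and 2.16 at day 5, and one of 10 gave 0.059 and 0.69. The choice of loci shared 115 of 150 with a pseudocount of 0.1, 102 with 10, 149 with TMM-scaled totals, 120 with the doubtful library in its group, and 147 to 150 without 1 late library. Loci near 0 counts at day 4 limit what day 4 can show.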
